A study of Homo sapiens with 96 samples.

Results

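The integrin subunits that keratinocytes are known to use were described on 96 human expression arrays. The 9 genes were ITGA2, ITGA3, ITGA5, ITGA6, ITGAV, ITGB1, ITGB4, ITGB5 and ITGB6, and each was read from 1 probe set, the brightest on average across the HaCaT construct arrays. Of these 9 genes, 8 had a probe set annotated to that gene alone, out of 19775 such genes on the array. The 4 probe sets of ITGB6 are each annotated to LINC02478 as well, so the brightest of them is reported beside the 8 genes as a joint probe set and is attributed to neither. All counts below are over the 8 genes.

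Integrins are receptors made of an alpha and a beta chain that tie the cell to the matrix outside it and to the cytoskeleton inside it. In the epidermis the ITGA6-ITGB4 pair anchors basal keratinocytes to laminin in hemidesmosomes, where it binds keratin filaments. ITGB1 pairs with ITGA2 as a collagen receptor, with ITGA3 as a laminin receptor and with ITGA5 as a fibronectin receptor, and these pairs sit in focal adhesions joined to actin. ITGAV pairs with ITGB5 as a vitronectin receptor and with ITGB6 as a receptor that activates latent TGF-beta.

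HaCaT, a spontaneously immortalized human keratinocyte line, carried a lentiviral CMV-promoter construct for wild-type EGFR (HaCaT-EGFR), mutant HRAS (HRASVal12D, HaCaT-HRAS) or mutant PIK3CA (PIK3CA-HR, HaCaT-PIK3CA), or the empty vector (HaCaT-Mock), and all were puromycin-selected populations. Each line received 10 nM afatinib, a kinase inhibitor of the ERBB family (3 arrays), 100 nM gefitinib, an EGFR kinase inhibitor (3 arrays, 2 in HaCaT-PIK3CA), 100 nM cetuximab, an antibody against EGFR (3 arrays), or PBS (3 arrays, 2 in HaCaT-EGFR), each for about a day. Other arrays had an siRNA against EGFR (siEGFR, 3 arrays in each line), with a scramble siRNA as its control (3 arrays in each line), and further arrays had scramble siRNA with 1 inhibitor (1 array each) or with PBS (2 arrays, 1 in HaCaT-Mock). Head and neck carcinoma lines, not given an inhibitor, were SCC1 (2 arrays), SCC25 (2 arrays) and FaDu (1 array, and 1 more under PBS), and 1 array held parental HaCaT cells.

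Values are log2 intensities per probe set, and a difference of 1 is a doubling of signal. The labels give each array a batch letter, J on 53 arrays, M on 26, E on 16 and P on 1, and batch was a term of every model. A gene was called changed at a Benjamini-Hochberg adjusted p under 0.05 over all 19776 rows tested in limma. Nothing in the labels says that replicates came from separate cultures, so p-values cover only the spread among these arrays, which may be technical, and precision is limited by how few arrays each group has. In such bulk samples fewer cells of a type and less RNA per cell cannot be told apart.

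EGFR fell by 1.92 after siEGFR over the 4 lines, with 12 of 12 arrays below every scramble array of their line. DUSP6, an ERK phosphatase that ERK signalling induces, fell by 2.24 under the inhibitors (35 of 35 arrays below all PBS arrays of their line), and in HaCaT-HRAS it fell by 0.59. EGFR itself read 10.95 and 11.02 in HaCaT-EGFR under PBS, against 10.96, 11.01 and 10.42 in HaCaT-Mock, so this probe set did not set the construct line apart. A few arrays stood apart or went against their labels. The array labelled HaCaT-PIK3CA afatinib replicate 1 had a DUSP6 of 9.57, against 8.16 and 7.73 on replicates 2 and 3. The single array labelled HaCaT-Mock scramble with PBS had a DUSP6 of 8.13, against 9.82 to 10.07 with scramble siRNA alone. HaCaT-HRAS gefitinib replicate 1 read 10.06 for ITGA2, against 11.08 on replicate 3. It and replicate 2 were held in doubt together with HaCaT-PIK3CA afatinib replicate 1, and results were also computed without these 3 arrays. The DUSP6 of both gefitinib arrays (10.21 and 10.33) lay below PBS as on the other inhibitor arrays. No value given here sets replicate 2 apart, and without both arrays replicate 3 is the only HaCaT-HRAS gefitinib array. The 3 arrays in doubt were chosen with their values known, the ITGA2 value of HaCaT-HRAS gefitinib replicate 1 among them. A call gained without them, for ITGA2 above all, is thus a description and not support. The keratinocyte markers KRT5 (9.70 to 13.22), KRT14 (11.36 to 13.86), CDH1 (9.83 to 12.06) and SFN (13.02 to 13.59) were high on every HaCaT array. On these arrays the mean level of the fibroblast list lay between 4.85 and 5.34, the leukocyte list between 4.46 and 4.999, the endothelial list between 4.51 and 5.33 and the melanocyte list between 4.58 and 4.98, and that of the keratinocyte list between 11.11 and 12.45.

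Over the 89 HaCaT construct arrays, ITGA2 spanned 9.49 to 11.35, from HaCaT-Mock siEGFR replicate 3 to HaCaT-HRAS afatinib replicate 2. ITGAV spanned 9.63 to 11.36 and ITGB5 8.40 to 9.73. ITGA3 lay between 6.45 and 7.95, ITGA5 between 5.72 and 7.42 and ITGB4 between 7.97 and 9.62. ITGA6, at 10.26 to 11.24, and ITGB1, the common beta chain, at 11.63 to 12.26, had the narrowest ranges of the 8. Signals of different probe sets are not on a common scale, so no gene's level was set against another's.

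The RefSeq promoter table (GRCh38.p14) held windows for 6 of the 8 genes, 11 in all. Each window runs over 300 bases, 250 before an annotated start and 50 after it. The windows below belong to the genes whose levels moved most with inhibitors (ITGB5, ITGAV) and differed most between HaCaT-HRAS and HaCaT-Mock (ITGA2, ITGA5). They are printed 5' to 3' on the gene's strand in lower case, with matches on either strand to AP-1 (TGANTCA), AP-2 (GCCNNNGGC) or ETS (CCGGAA) letters in capitals. For ITGB5, which has 3 windows, those nearest to and farthest from the gene's end are shown.
ITGB5, chr3:124887316-124887615, minus strand: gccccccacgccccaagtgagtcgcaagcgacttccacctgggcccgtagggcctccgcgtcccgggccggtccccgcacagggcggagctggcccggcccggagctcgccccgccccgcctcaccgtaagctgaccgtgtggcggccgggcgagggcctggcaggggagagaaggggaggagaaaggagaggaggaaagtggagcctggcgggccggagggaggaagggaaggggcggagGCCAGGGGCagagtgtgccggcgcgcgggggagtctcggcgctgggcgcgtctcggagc
ITGB5, chr3:124901369-124901668, minus strand: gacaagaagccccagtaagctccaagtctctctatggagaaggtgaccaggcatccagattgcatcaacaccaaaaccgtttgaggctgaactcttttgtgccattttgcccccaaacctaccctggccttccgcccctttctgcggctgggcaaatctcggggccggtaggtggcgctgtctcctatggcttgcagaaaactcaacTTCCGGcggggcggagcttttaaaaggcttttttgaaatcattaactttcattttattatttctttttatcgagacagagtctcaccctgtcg
ITGAV, chr2:186589806-186590105, plus strand: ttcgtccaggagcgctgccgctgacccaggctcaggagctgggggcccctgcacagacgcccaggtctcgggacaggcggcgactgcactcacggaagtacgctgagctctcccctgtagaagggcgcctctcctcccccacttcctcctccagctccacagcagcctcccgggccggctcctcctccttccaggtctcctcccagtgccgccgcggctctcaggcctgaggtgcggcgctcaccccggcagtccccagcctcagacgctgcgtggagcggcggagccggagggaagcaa
ITGA2, chr5:52989102-52989401, plus strand: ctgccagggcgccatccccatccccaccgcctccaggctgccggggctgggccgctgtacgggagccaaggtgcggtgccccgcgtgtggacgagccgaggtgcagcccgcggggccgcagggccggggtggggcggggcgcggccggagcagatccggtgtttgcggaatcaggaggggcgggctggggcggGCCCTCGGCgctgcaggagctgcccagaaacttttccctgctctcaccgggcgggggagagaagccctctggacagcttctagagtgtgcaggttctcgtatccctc
ITGA5, chr12:54419217-54419516, minus strand: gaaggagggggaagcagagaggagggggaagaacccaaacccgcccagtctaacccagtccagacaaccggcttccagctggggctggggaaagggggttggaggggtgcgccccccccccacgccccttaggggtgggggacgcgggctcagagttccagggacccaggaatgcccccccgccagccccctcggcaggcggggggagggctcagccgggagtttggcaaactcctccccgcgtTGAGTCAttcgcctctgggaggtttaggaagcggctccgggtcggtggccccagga
The AP-1 letters occurred in 1 of the 11 windows, that of ITGA5, and in 7.7% of 35116 promoter windows of the table. AP-2 letters occurred in 5 of the 11, among them that of ITGA2 and 2 of the 3 of ITGB5, against 23.2% of all windows. ETS letters were in 3 of the 11 windows, against 17.2% of all, and SP1 letters (GGGCGG, not capitalized) in 8 of the 11, against 45.0% of all. AP-2 and SP1 letters can share bases. The ITGAV window printed held none of the 4 motifs. A match describes the letters only.

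The inhibitor arrays address what blocking EGFR does to each line. Under the 3 inhibitors as 1 group (35 arrays against 11 PBS arrays), ITGAV and ITGA2 rose and ITGB5, ITGA6, ITGA3, ITGA5 and ITGB1 fell, so that 2 of 8 genes rose and 5 fell, beside 39.2% of all genes called. The median change of the 8 genes was -0.11, and that of all genes -0.01. The beta chain ITGB5 and the alpha chain it pairs with, ITGAV, moved in opposite directions.

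ITGB5 had its lowest, median and highest values at 8.68, 8.87 and 9.14 on the 9 inhibitor arrays of HaCaT-Mock, against 9.66, 9.62 and 9.69 on its PBS arrays. In HaCaT-EGFR these were 8.60, 8.66 and 8.81 under inhibitors, against 9.44 and 9.49 under PBS. In HaCaT-PIK3CA they were 8.82, 8.99 and 9.60 under inhibitors, against 9.69, 9.66 and 9.72 under PBS. In these 3 lines no inhibitor array reached any PBS array, and the highest one, at 9.60, was the doubted HaCaT-PIK3CA afatinib replicate 1. ITGB5 fell by 0.79 in HaCaT-Mock (SE 0.0649, limma adjusted p = 1.19e-14), by 0.78 in HaCaT-EGFR (SE 0.0759, limma adjusted p = 7.18e-12) and by 0.65 in HaCaT-PIK3CA (SE 0.0657, limma adjusted p = 3.67e-11). HaCaT-HRAS was different. Its inhibitor arrays had 9.55, 9.66 and 9.73 as lowest, median and highest value, against 9.65, 9.66 and 9.64 under PBS, so the groups overlapped. The change there was -0.01 (SE 0.0643, 95% interval -0.14 to 0.12, limma adjusted p = 0.956), and it was -0.05 without the arrays in doubt. The inhibitor response of HaCaT-HRAS exceeded that of HaCaT-Mock by 0.78 (SE 0.0914, 95% interval 0.60 to 0.96, limma adjusted p = 9.22e-09). Over the 4 lines ITGB5 fell by 0.56 (SE 0.0341, limma adjusted p = 3.77e-20), with within-batch differences of -0.54 in batch J, -0.88 in batch E (HaCaT-Mock alone) and -0.38 in batch M (2 lines). The other ITGB5 probe sets gave -0.50 (SE 0.0489), -0.70 (SE 0.0722) and 0.13 (SE 0.0924) over the 4 lines. The one at 0.13 had an r of -0.042 with the probe set used.

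ITGAV, which serves several beta chains, was higher under inhibitors in every line. Its lowest, median and highest inhibitor values were 10.35, 10.81 and 11.19 in HaCaT-Mock, against 10.36, 10.30 and 9.92 under PBS. In HaCaT-EGFR they were 10.65, 11.05 and 11.36, against 10.25 and 10.19 under PBS. In HaCaT-HRAS they were 10.67, 11.02 and 11.28, against 10.55, 10.56 and 10.34 under PBS, and in HaCaT-PIK3CA 9.95, 10.92 and 11.15, against 10.35, 10.33 and 9.97 under PBS. All 9 inhibitor arrays lay above PBS in HaCaT-EGFR and in HaCaT-HRAS, as did 8 of 9 in HaCaT-Mock and 7 of 8 in HaCaT-PIK3CA, where the doubted afatinib replicate 1 lay below. ITGAV rose by 0.68 in HaCaT-Mock (SE 0.122, limma adjusted p = 1.01e-05), by 0.89 in HaCaT-EGFR (SE 0.143, limma adjusted p = 1.57e-06), by 0.64 in HaCaT-PIK3CA (SE 0.123, limma adjusted p = 6.28e-05) and by 0.54 in HaCaT-HRAS (SE 0.121, limma adjusted p = 0.00344). The rise was 0.62 in HaCaT-HRAS and 0.77 in HaCaT-PIK3CA without the arrays in doubt. The HaCaT-HRAS call was lost with batch J arrays alone (0.50, adjusted p = 0.143), and the HaCaT-PIK3CA call with only the compared groups in the model (0.63, adjusted p = 0.105). In contrast to ITGB5, the ITGAV response of HaCaT-HRAS was not called different from that of HaCaT-Mock (-0.14, 95% interval -0.49 to 0.20, limma adjusted p = 0.722). Across all 4 lines the rise was 0.68 (SE 0.0641, limma adjusted p = 1.88e-13), and within batches it was 0.69 (J), 0.48 (E) and 0.73 (M).

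ITGA6, the hemidesmosome alpha chain, fell by 0.46 in HaCaT-Mock (SE 0.0644, limma adjusted p = 6.25e-08), where inhibitor arrays had 10.46, 10.53 and 10.65 as lowest, median and highest value, against 11.07, 11.14 and 10.86 under PBS. It fell by 0.37 in HaCaT-HRAS (SE 0.0639, limma adjusted p = 0.00012), with values of 10.47, 10.68 and 10.71, against 11.02, 11.02 and 10.99 under PBS. In HaCaT-PIK3CA it fell by 0.49 (SE 0.0652, limma adjusted p = 5.34e-08), with 10.26, 10.35 and 10.93 against 10.82, 10.98 and 10.89 under PBS. In these lines only the doubted HaCaT-PIK3CA array overlapped the PBS arrays. HaCaT-EGFR had 10.74, 10.80 and 10.92 under inhibitors, against 11.03 and 10.98 under PBS. Its 9 inhibitor arrays lay below both PBS arrays, but the difference of -0.17 did not pass the test (SE 0.0754, limma adjusted p = 0.0989). Over the 4 lines ITGA6 fell by 0.37 (SE 0.0339, limma adjusted p = 7.58e-14), and the response of HaCaT-HRAS differed from that of HaCaT-Mock by 0.09 (95% interval -0.10 to 0.27, limma adjusted p = 0.679).

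**Figure D1:**
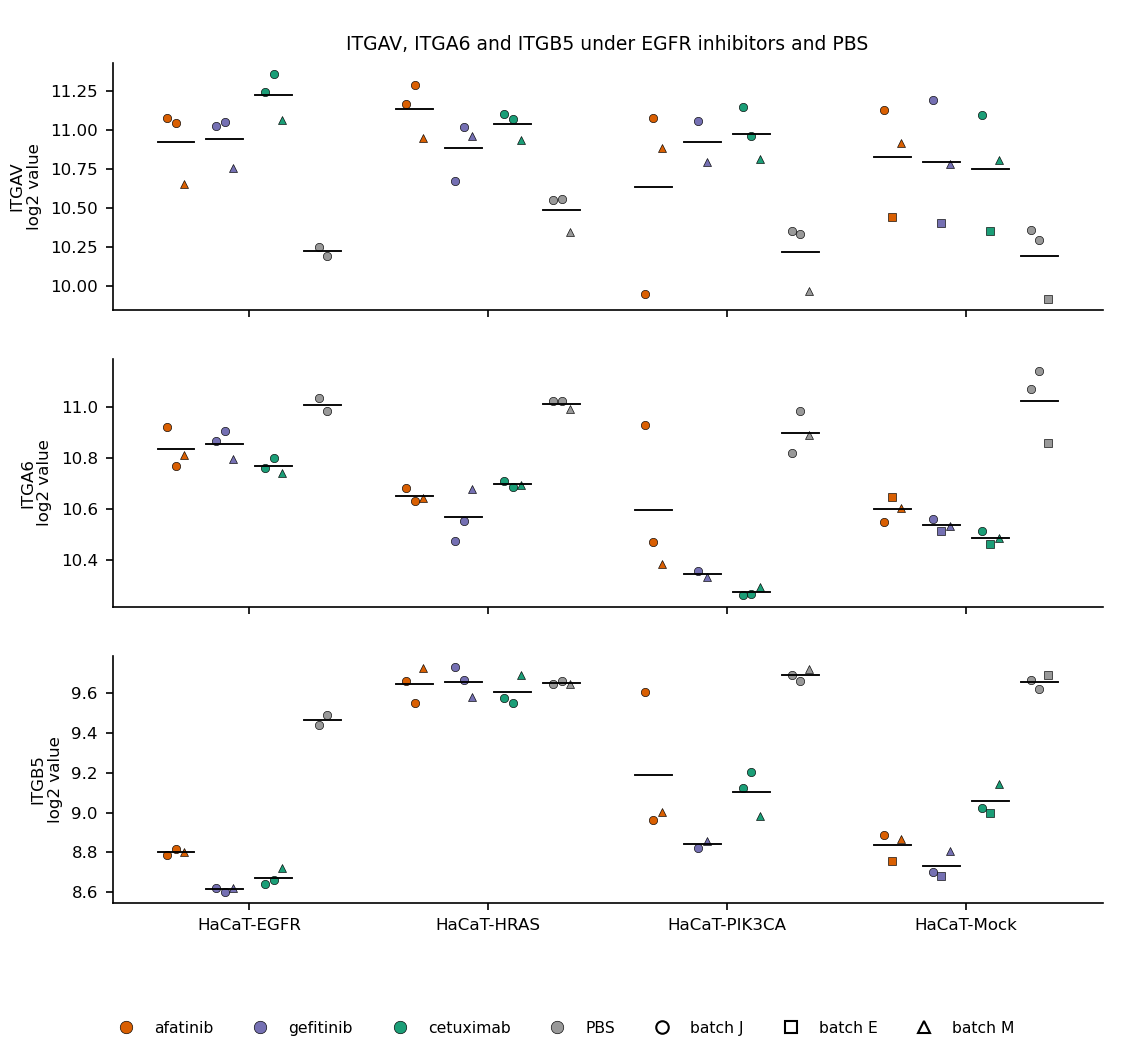
Log2 expression (vertical axis) of ITGAV, ITGA6 and ITGB5 on each array of the 4 HaCaT lines under afatinib, gefitinib, cetuximab and PBS (horizontal axis), with a line at each group mean and a marker shape for the batch. ITGB5 lies between 8.60 and 9.14 under inhibitors in HaCaT-Mock and HaCaT-EGFR, against 9.44 to 9.69 under PBS, while in HaCaT-HRAS the inhibitor arrays (9.55 to 9.73) overlap PBS (9.64 to 9.66).

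ITGA3, the alpha chain of a laminin receptor, had 7.17, 7.33 and 7.55 under afatinib, 6.77, 7.19 and 7.45 under gefitinib and 6.81, 7.05 and 7.25 under cetuximab in HaCaT-Mock, against 7.43, 7.42 and 7.64 under PBS. Of the 9 inhibitor arrays 7 lay below PBS, and ITGA3 fell by 0.49 (SE 0.0855, limma adjusted p = 5.91e-06). In HaCaT-PIK3CA it fell by 0.51 (SE 0.0865, limma adjusted p = 7.91e-06), with inhibitor values of 6.51 to 7.40 against 7.34, 7.21 and 7.85 under PBS. Batch M arrays read higher for this probe set. The difference was -0.13 in HaCaT-EGFR (limma adjusted p = 0.399) and 0.00 in HaCaT-HRAS (95% interval -0.17 to 0.17, limma adjusted p = 0.992). The response of HaCaT-HRAS exceeded that of HaCaT-Mock by 0.49 (SE 0.120, limma adjusted p = 0.00392). That call was lost with batch J arrays alone (0.54, adjusted p = 0.124) and with only the compared groups in the model (0.47, adjusted p = 0.0734).

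ITGA2, the alpha chain of a collagen receptor, rose in HaCaT-EGFR and HaCaT-Mock. In HaCaT-EGFR it had 10.67, 10.65 and 10.70 under afatinib, 10.41, 10.54 and 10.61 under gefitinib and 10.23, 10.31 and 10.19 under cetuximab, against 10.01 and 10.04 under PBS. All 9 lay above both PBS arrays, a rise of 0.45 (SE 0.133, limma adjusted p = 0.00666). In HaCaT-Mock it rose by 0.34 (SE 0.113, limma adjusted p = 0.0163), with 8 of 9 arrays above PBS. Both calls turned on single PBS arrays: adjusted p was 0.0889 without HaCaT-EGFR PBS replicate 1, 0.0649 without its replicate 2, and 0.108 without HaCaT-Mock PBS replicate 3. The HaCaT-Mock call was also lost with batch J arrays alone (0.35, adjusted p = 0.200). The other ITGA2 probe set gave smaller rises under the inhibitors, 0.12 in HaCaT-EGFR (SE 0.136) and 0.24 in HaCaT-Mock (SE 0.117). The differences were -0.06 in HaCaT-HRAS (limma adjusted p = 0.874) and 0.10 in HaCaT-PIK3CA (limma adjusted p = 0.624). The HaCaT-HRAS response minus that of HaCaT-Mock was -0.40 (adjusted p = 0.112). Without the arrays in doubt the difference in HaCaT-PIK3CA was 0.19 and the HaCaT-HRAS response minus that of HaCaT-Mock was -0.28, with an adjusted p of 0.0337 and 0.0376 on arrays not chosen independently of ITGA2.

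The remaining subunits moved less. ITGB1 fell by 0.10 over the 4 lines (SE 0.0251, limma adjusted p = 0.000743). Before rounding, its 9 inhibitor arrays lay below every PBS array in HaCaT-Mock (11.90 to 12.10, against 12.15, 12.23 and 12.10) and in HaCaT-EGFR (11.79 to 12.01, against 12.06 and 12.09). Batch M arrays read lower for this gene. Each inhibitor group of these lines held a batch M array and their PBS groups held none, so the lack of overlap is in part one of batch. With batch in the model the ITGB1 difference was -0.12 in both lines (limma adjusted p = 0.0427 and 0.119). The HaCaT-Mock call was lost on leaving out any of 8 single arrays (adjusted p of at most 0.208), with batch J arrays alone (adjusted p = 0.329) and with only the compared groups in the model (adjusted p = 0.0722). ITGA5, a fibronectin receptor chain, fell by 0.13 over the 4 lines (limma adjusted p = 0.0359), a call lost with batch J arrays alone (-0.08, adjusted p = 0.441), with only the compared groups in the model (-0.12, adjusted p = 0.0631) and on leaving out any of 8 single arrays, 6 of them PBS arrays (adjusted p of at most 0.14). ITGB4, the hemidesmosome beta chain, fell in HaCaT-PIK3CA by 0.25 (SE 0.0757, limma adjusted p = 0.0116), which was lost without PBS replicate 3 of that line (-0.23, adjusted p = 0.0717). The other ITGB4 probe sets gave -0.32 (SE 0.0929), 0.05, 0.00 and 0.17 in HaCaT-PIK3CA. The one at -0.32, whose r with the probe set used was 0.895, fell by 0.22 over the 4 lines (SE 0.0482). The one at 0.00 is that chosen by the methods' rule.

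By line, 2 genes rose and 4 fell in HaCaT-Mock (28.7% of all genes called), 2 rose and 1 fell in HaCaT-EGFR (26.4%), 1 rose and 1 fell in HaCaT-HRAS (6.02%), and 1 rose and 4 fell in HaCaT-PIK3CA (20.3%). Against HaCaT-Mock, the response of HaCaT-HRAS differed for 2 genes, ITGB5 and ITGA3, both upward, beside 9.53% of all genes. For HaCaT-EGFR no response difference was called in limma (3 at an unadjusted p under 0.05, 0.0708% of all genes called), and for HaCaT-PIK3CA none was (0 at an unadjusted p under 0.05, 0.142% called). With array weights the HaCaT-EGFR count was 3. These comparisons share the HaCaT-Mock arrays. The joint probe set rose by 0.65 in HaCaT-HRAS (limma adjusted p = 4.32e-05), with 9.87 to 10.34 on all 9 inhibitor arrays against 9.40 to 9.62 under PBS, and by 0.48 in HaCaT-PIK3CA (limma adjusted p = 0.000425). The HaCaT-PIK3CA call was lost with batch J arrays alone and with only the compared groups in the model. In HaCaT-Mock the joint probe set rose by 0.28, a call lost under 9 of 19 alternatives, and in HaCaT-EGFR it was at -0.05 (SE 0.123).

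**Figure D2:**
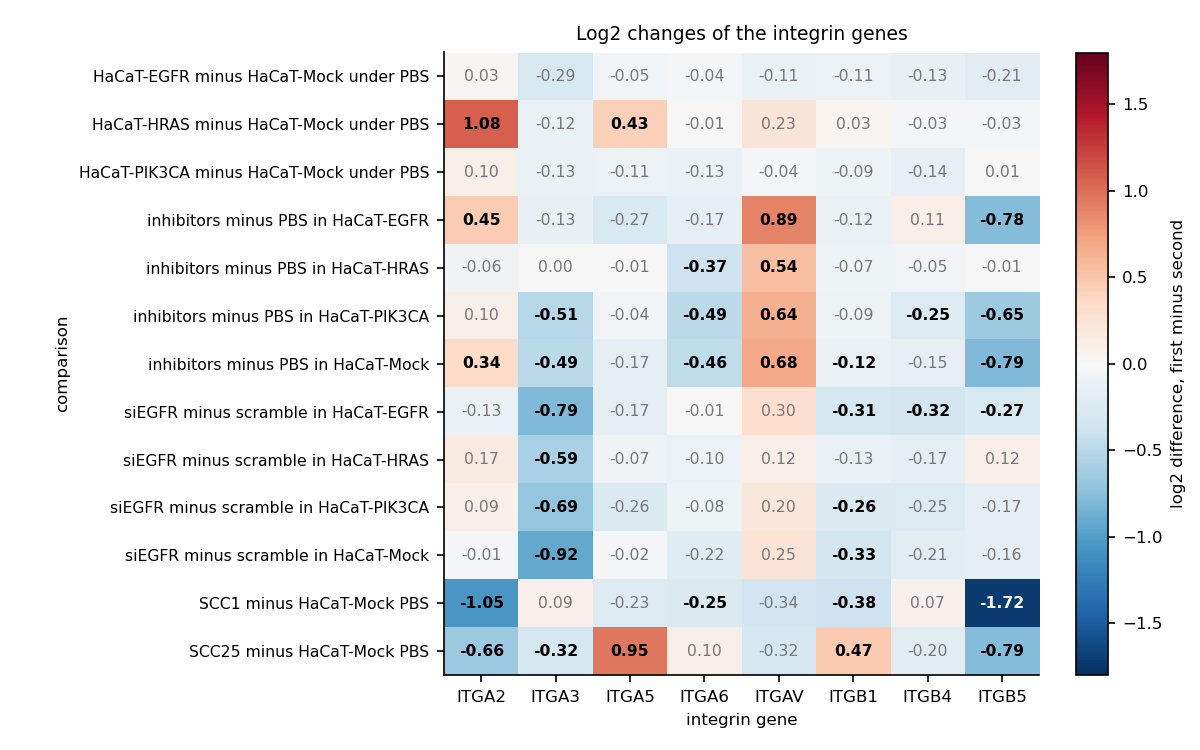
Heat map of log2 differences of the 8 integrin genes (columns) in the construct, inhibitor, siRNA and carcinoma comparisons (rows), each the first group minus the second, with bold numbers at an adjusted p under 0.05. ITGAV is positive and ITGA6 negative in all 4 inhibitor rows, and ITGB5 is at -0.79, -0.78 and -0.65 in 3 of them and at -0.01 in HaCaT-HRAS.

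The inhibitors were also taken singly over the 4 lines, against the same PBS arrays. Afatinib raised 2 genes and lowered 4 (37.1% of all genes called), gefitinib raised 1 and lowered 5 (37.5%), and cetuximab raised 1 and lowered 5 (28.8%). The afatinib and cetuximab counts include ITGB1, at -0.09 to -0.05 and -0.08 to -0.07 over the settings run. Its call was lost under 21 of 31 alternatives for afatinib and 17 of 30 for cetuximab. ITGAV rose by 0.64 under afatinib, 0.66 under gefitinib and 0.76 under cetuximab, and ITGA6 fell by 0.30, 0.39 and 0.42 in that order of agents. Afatinib minus gefitinib was -0.01 for ITGAV (95% interval -0.17 to 0.14, limma adjusted p = 0.976) and 0.09 for ITGA6 (95% interval 0.01 to 0.17, limma adjusted p = 0.465). ITGA2 passed under afatinib (0.34, SE 0.0714, limma adjusted p = 7.63e-05), with 10 of 12 arrays above PBS, while gefitinib gave 0.16 (adjusted p = 0.0871) and cetuximab 0.13 (adjusted p = 0.186). Without the arrays in doubt, the HaCaT-HRAS array low in ITGA2 among them, gefitinib gave 0.27 (adjusted p = 6.79e-06).

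With the probe set used, ITGB4 was lower under cetuximab than under either kinase inhibitor over the 4 lines. In HaCaT-EGFR it had 8.74, 8.69 and 9.62 under afatinib, 8.66, 8.65 and 9.50 under gefitinib and 8.23, 8.16 and 8.97 under cetuximab, and in HaCaT-PIK3CA cetuximab gave 7.98, 7.97 and 8.83. The last value of each trio is a batch M array, and batch M read higher for this gene throughout. Afatinib, gefitinib and cetuximab minus PBS were 0.33, 0.25 and -0.23 in HaCaT-EGFR, and 0.08, -0.21 and -0.30 in HaCaT-Mock. They were -0.04, 0.10 and -0.21 in HaCaT-HRAS, and -0.13, -0.21 and -0.41 in HaCaT-PIK3CA. In HaCaT-Mock gefitinib thus lay nearer to cetuximab than to afatinib. Over the 4 lines cetuximab lowered ITGB4 by 0.29 (SE 0.0471, limma adjusted p = 1.21e-06). Afatinib exceeded cetuximab by 0.35 (SE 0.0454, limma adjusted p = 7.95e-08) and gefitinib exceeded it by 0.27 (SE 0.0468, limma adjusted p = 6.58e-05). All 3 calls were lost with the probe set chosen by the methods' rule. With it cetuximab minus PBS was -0.13, afatinib minus cetuximab 0.02 and gefitinib minus cetuximab 0.07. Afatinib also exceeded cetuximab for ITGA3 (0.25, limma adjusted p = 0.000431), ITGA2 (0.21, limma adjusted p = 0.0325) and ITGA6 (0.11, limma adjusted p = 0.0426), in all 4 genes up and 0 down beside 13.2% of all genes. Gefitinib minus cetuximab had 1 gene up and 1 down, ITGB5 at -0.15 (limma adjusted p = 0.0108), beside 10.8%, and afatinib minus gefitinib had 1 up, ITGB5 at 0.16 (limma adjusted p = 0.0493), beside 0.485%. The last of these, and those of ITGA2 and ITGA6, were lost on leaving out single arrays (adjusted p of at most 0.158, 0.0933 and 0.130). With batch J arrays alone the ITGA3 value of afatinib minus cetuximab (0.29, adjusted p = 0.0545) and the ITGB5 value of gefitinib minus cetuximab (-0.14, adjusted p = 0.289) were not called.

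Leaving out the arrays in doubt moved other values across the threshold too. ITGB4 was at -0.11 without them for the inhibitors over the 4 lines (adjusted p = 9.16e-05), against -0.08 with all arrays (adjusted p = 0.0901), and at -0.15 in HaCaT-HRAS (adjusted p = 0.0313), against -0.05 (adjusted p = 0.818). For gefitinib ITGB4 was at -0.10 without them (adjusted p = 0.0105), against -0.02 (adjusted p = 0.831), and afatinib minus gefitinib was 0.16 (adjusted p = 0.00767), against 0.08 (adjusted p = 0.644). ITGB1 in HaCaT-PIK3CA was at -0.10 (adjusted p = 0.0130), against -0.09 (adjusted p = 0.239). The joint probe set's response in HaCaT-HRAS minus that in HaCaT-Mock was 0.44 (adjusted p = 0.00072), against 0.37 (adjusted p = 0.117). The ITGA6 value of afatinib minus cetuximab lost its call without them (0.07, adjusted p = 0.0787).

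On arrays that also had scramble siRNA (12 inhibitor arrays against 7 PBS arrays), 1 gene rose and 4 fell, beside 19.3% of all genes. ITGB5 fell by 0.49 (SE 0.0505, limma adjusted p = 8.53e-11), with 8.40, 8.61 and 8.62 in HaCaT-EGFR against 9.49 and 9.51 with PBS, and 8.74, 8.80 and 8.86 in HaCaT-PIK3CA against 9.65 and 9.70 with PBS. In HaCaT-HRAS its values were 9.46, 9.47 and 9.54, against 9.51 and 9.53 with PBS, and these overlapped. ITGAV rose by 0.28 (SE 0.0949, limma adjusted p = 0.0287). The single HaCaT-Mock scramble array with PBS, in doubt from its DUSP6, had 11.20 for ITGAV and 8.94 for ITGB5. Without the HaCaT-Mock arrays of this set, an alternative chosen after seeing the data, ITGAV rose by 0.64 (adjusted p = 3.18e-06) and ITGB5 fell by 0.60 (adjusted p = 4.43e-12). With only the compared groups in the model, ITGB5 alone of the 8 passed. The ITGAV call on these arrays was lost without the first scramble and PBS array of HaCaT-EGFR, HaCaT-HRAS or HaCaT-PIK3CA (adjusted p = 0.0585, 0.0645 and 0.0708).

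Knockdown lowers EGFR RNA, whereas the inhibitors act on the protein. Here ITGA3 had the largest change of the 8 over the 4 lines (-0.75). ITGB1 (-0.26) came next, close in size to ITGB4 (-0.24) and ITGAV (0.22). DUSP6 changed by -1.07 after siEGFR over the 4 lines, against -2.24 under the inhibitors. In HaCaT-HRAS it changed by -0.22 after siEGFR (limma adjusted p = 0.685). The paper names 1 siRNA against EGFR, and an effect of that siRNA apart from EGFR was not tested. Over the 4 lines 1 gene rose and 5 fell after siEGFR (12 arrays against 12), beside 28.4% of all genes called, with a median change of -0.13 for the 8 genes and -0.02 for all genes.

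ITGA3 had 6.45, 6.45 and 7.17 after siEGFR in HaCaT-Mock, against 7.49, 7.42 and 7.90 with scramble. In HaCaT-EGFR it had 6.70, 6.50 and 7.13 after siEGFR, against 7.39, 7.37 and 7.94 with scramble. In HaCaT-HRAS the values were 6.75, 6.86 and 7.27, against 7.28, 7.40 and 7.95 with scramble, and in HaCaT-PIK3CA 6.45, 6.68 and 7.03, against 7.14, 7.26 and 7.83 with scramble. All 12 siEGFR arrays lay below every scramble array of their line, and the last array of each trio, of batch M, read higher in both groups. ITGA3 fell by 0.92 in HaCaT-Mock (SE 0.104, limma adjusted p = 1.9e-09). It fell by 0.79 in HaCaT-EGFR (limma adjusted p = 1.22e-07), by 0.69 in HaCaT-PIK3CA (limma adjusted p = 1.54e-06) and by 0.59 in HaCaT-HRAS (limma adjusted p = 6.84e-05). Across all lines ITGA3 fell by 0.75 (SE 0.0519, limma adjusted p = 1.5e-17), by 0.74 within batch J and by 0.75 within batch M. With batch J arrays alone the HaCaT-HRAS value missed the threshold (-0.54, adjusted p = 0.0505).

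ITGB1, the beta chain that ITGA3 pairs with, had 11.98, 11.80 and 11.69 after siEGFR in HaCaT-Mock, against 12.25, 12.18 and 12.03 with scramble. In HaCaT-EGFR it had 11.85, 11.82 and 11.63, against 12.14, 12.12 and 11.98 with scramble, and in HaCaT-PIK3CA 11.85, 11.91 and 11.75, against 12.19, 12.10 and 12.01 with scramble. The groups did not overlap in these lines. ITGB1 fell by 0.33 in HaCaT-Mock (SE 0.058, limma adjusted p = 3.36e-05), 0.31 in HaCaT-EGFR (limma adjusted p = 9.34e-05) and 0.26 in HaCaT-PIK3CA (limma adjusted p = 0.000852). In HaCaT-HRAS it had 12.05, 12.03 and 11.94, against 12.19, 12.18 and 12.03 with scramble, a difference of -0.13 that did not pass (95% interval -0.24 to -0.01, limma adjusted p = 0.237). Across all lines ITGB1 fell by 0.26 (SE 0.029, limma adjusted p = 1.58e-10), and by 0.26 within each of batches J and M. The HaCaT-Mock call was lost with only the compared groups in the model (-0.33, adjusted p = 0.0606), and the HaCaT-PIK3CA call with batch J arrays alone (-0.27, adjusted p = 0.0618).

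**Figure D3:**
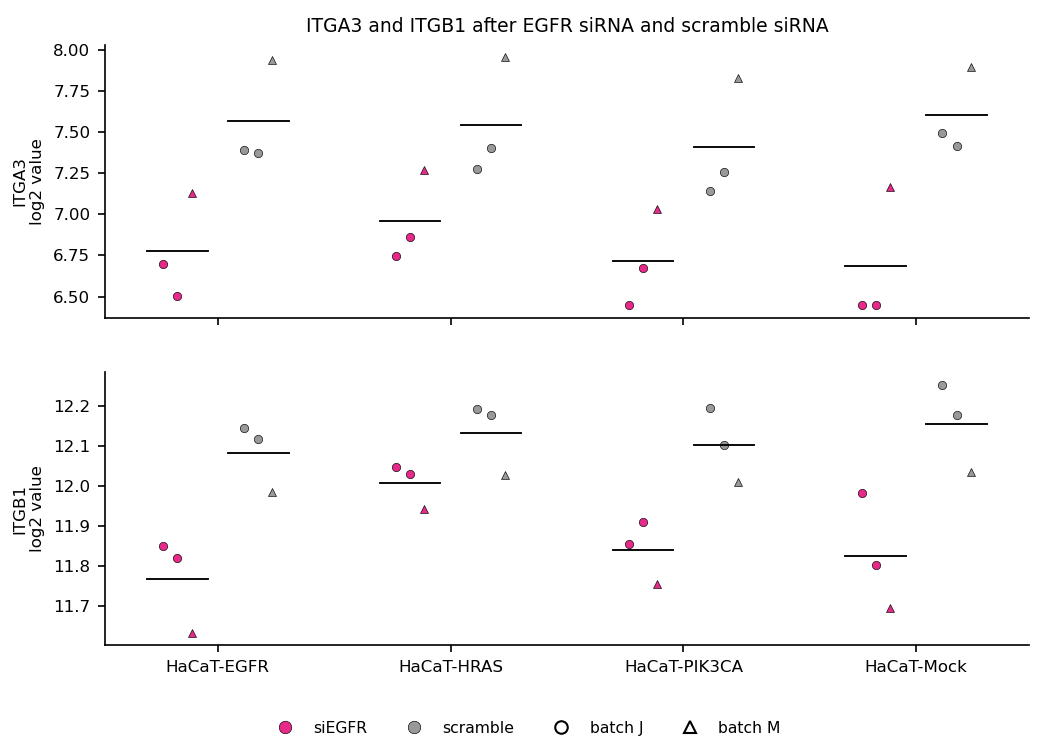
Log2 expression (vertical axis) of ITGA3 and ITGB1 on each siEGFR and scramble array of the 4 HaCaT lines (horizontal axis), with a line at each group mean and a marker shape for batches J and M. The ITGA3 values after siEGFR lie between 6.45 and 7.27, against 7.14 to 7.95 with scramble, and within each line and batch every siEGFR point is below its scramble points.

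Of the others, ITGB4 fell by 0.24 over the 4 lines (SE 0.0454, limma adjusted p = 2.88e-05) and by 0.32 in HaCaT-EGFR (limma adjusted p = 0.0127). Both calls were lost with the probe set chosen by the methods' rule (-0.08, adjusted p = 0.307, and -0.15, adjusted p = 0.469). The remaining ITGB4 probe sets gave -0.15 (SE 0.0557), -0.23 (SE 0.0613) and 0.06 (SE 0.0931) over the 4 lines. The HaCaT-EGFR call was also lost without siEGFR replicate 2 (-0.28, adjusted p = 0.0993) and without scramble replicate 3 (-0.31, adjusted p = 0.0578). ITGB5 fell in HaCaT-EGFR, where siEGFR arrays had 9.13 to 9.19 against 9.35 to 9.55 with scramble (-0.27, SE 0.0788, limma adjusted p = 0.0185). That call was lost without siEGFR replicates 2 or 3 or scramble replicate 3 (adjusted p of at most 0.136). In HaCaT-HRAS its 3 siEGFR arrays, at 9.50 to 9.59, lay above the scramble arrays at 9.42 to 9.46, though the difference of 0.12 did not pass (adjusted p = 0.490). ITGAV rose by 0.22 over the 4 lines (limma adjusted p = 0.0218), which was lost without HaCaT-Mock siEGFR replicate 2 (0.19, adjusted p = 0.0525). ITGA6 fell by 0.10 (limma adjusted p = 0.0425), a call lost on leaving out single arrays (adjusted p of at most 0.143). ITGA2 stood at 0.03 (adjusted p = 0.820) and ITGA5 at -0.13 (adjusted p = 0.0808). By line, 0 genes rose in each and 2 fell in HaCaT-Mock (10.8% of all genes called), 2 in HaCaT-PIK3CA (11.6%), 4 in HaCaT-EGFR (9.48%) and 1 in HaCaT-HRAS (6.29%).

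The siEGFR response was then set against the inhibitor response, a comparison added after seeing the data, in which 2 genes were higher and 4 lower (26.8% of all genes called). DUSP6 differed as well (1.17, limma adjusted p = 1.37e-09), its fall being smaller after siEGFR. The part of that difference in the integrin values was not tested. The knockdown response was the lower one for ITGA3 (-0.46, SE 0.0687, limma adjusted p = 2.35e-07), ITGAV (-0.47, limma adjusted p = 0.000131), ITGB1 (-0.16, limma adjusted p = 0.00103) and ITGB4 (-0.15, limma adjusted p = 0.0493). It was the higher one for ITGB5 (0.44, limma adjusted p = 1.04e-09) and ITGA6 (0.27, limma adjusted p = 3.52e-05), which fell more under the inhibitors. The ITGB4 call was lost on leaving out single arrays (adjusted p of at most 0.0899). ITGA2 was at -0.18 (adjusted p = 0.147), and at -0.24 without the arrays in doubt (adjusted p = 0.00024). The scramble siRNA itself differed from PBS: 1 gene was higher, ITGA5 (0.22, limma adjusted p = 0.0024), and 2 were lower, ITGA2 (-0.32, limma adjusted p = 0.000312) and ITGAV (-0.34, limma adjusted p = 0.000417), beside 27.1% of all genes called.

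The construct lines were compared with HaCaT-Mock without an inhibitor. In HaCaT-HRAS under PBS, ITGA2 and ITGA5, 2 of the 8 genes, were higher and 0 lower (16.1% of all genes called). The median was 0.01 for the 8 genes and 0.00 for all genes. Whether the construct or another difference between the selected populations accounts for this was not tested. ITGA2 had 11.05, 11.04 and 11.11 in HaCaT-HRAS under PBS, against 10.01, 10.03 and 9.80 in HaCaT-Mock. The groups stood apart by about 1 unit, a rise of 1.08 (SE 0.141, 95% interval 0.79 to 1.36, limma adjusted p = 2.51e-08). Under scramble siRNA, on other arrays, ITGA2 had 10.55, 10.55 and 10.50 in HaCaT-HRAS, against 9.78, 9.63 and 9.56 in HaCaT-Mock, a rise of 0.87 (SE 0.138, limma adjusted p = 1.96e-06). The rise was 0.84 within batch J and 0.94 within batch M. A second ITGA2 probe set gave 0.94 under PBS.

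ITGA5 had 6.60, 6.69 and 7.18 in HaCaT-HRAS under PBS, against 6.33, 6.25 and 6.47 in HaCaT-Mock. All 3 lay above, a rise of 0.43 (SE 0.116, limma adjusted p = 0.00508), and the value of 7.18 came from a batch M array, of which the HaCaT-Mock PBS group has none. Under scramble siRNA it had 6.73, 6.68 and 7.42 in HaCaT-HRAS, against 6.31, 6.45 and 6.89 in HaCaT-Mock, a rise of 0.40 (SE 0.114, limma adjusted p = 0.00962). The scramble call was lost without HaCaT-Mock scramble replicate 1 (0.35, adjusted p = 0.0614) and without HaCaT-HRAS scramble replicate 3 (0.30, adjusted p = 0.120), and with batch J arrays alone neither call held (adjusted p = 0.226 and 0.273). ITGB5 was lower in HaCaT-HRAS under scramble siRNA, at 9.42, 9.43 and 9.46 against 9.64, 9.63 and 9.70 in HaCaT-Mock (-0.22, SE 0.0788, limma adjusted p = 0.0472). Leaving out any 1 of these 6 arrays lost that call (adjusted p of at most 0.131). Under PBS the ITGB5 difference was -0.03 (adjusted p = 0.886). The scramble comparison thus had 2 genes up and 1 down, beside 14.9% of all genes.

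**Figure D4:**
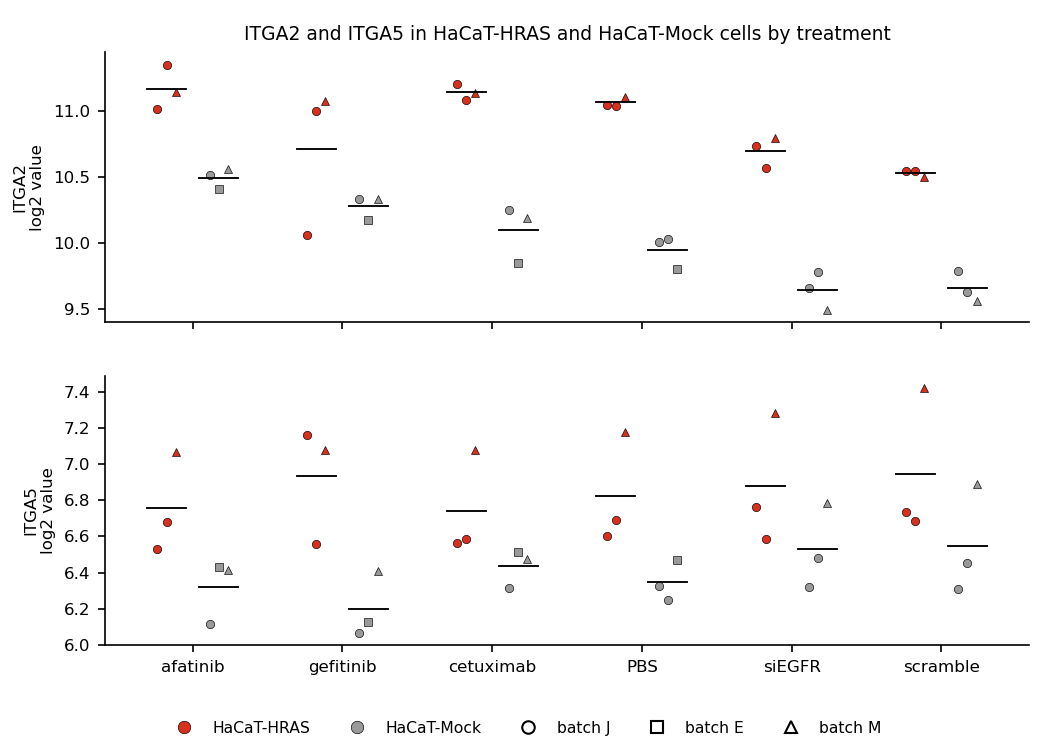
Log2 expression (vertical axis) of ITGA2 and ITGA5 on each array of HaCaT-HRAS and HaCaT-Mock under afatinib, gefitinib, cetuximab, PBS, siEGFR and scramble siRNA (horizontal axis), with a line at each group mean. ITGA2 is at 10.50 to 11.35 in HaCaT-HRAS except gefitinib replicate 1 at 10.06, against 9.49 to 10.56 in HaCaT-Mock.

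HaCaT-EGFR and HaCaT-PIK3CA had 0 of the 8 genes called against HaCaT-Mock in limma. For HaCaT-EGFR 2 genes had an unadjusted p under 0.05 under PBS (0.698% of all genes called) and 3 under scramble siRNA (2.38%), among them ITGB5, at -0.21 (adjusted p = 0.41) and -0.22 (adjusted p = 0.144). With array weights the counts of called genes were 2 and 3. For HaCaT-PIK3CA 0 genes had an unadjusted p under 0.05 under PBS (0.162% called) or scramble siRNA (0.0303%).

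The carcinoma lines were set against HaCaT-Mock under PBS, from which they differ in origin as well. In SCC1 (n = 2 against 3) 0 genes were higher and 4 lower, beside 37.4% of all genes called, and in SCC25 (n = 2 against 3) 2 were higher and 3 lower, beside 42.2%. The median of the 8 genes was -0.30 in SCC1 and -0.26 in SCC25, against 0.03 and -0.02 over all genes. ITGB5 and ITGA2 were lower in both. Of the 7 measured keratinocyte markers 0 were higher and 7 lower in SCC1, and 3 were higher and 1 lower in SCC25. The list's mean level was 10.30 to 12.17 over the carcinoma and parental HaCaT arrays, and its part in the integrin results was not tested.

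ITGB5 had 7.97 and 7.96 in SCC1 and 8.89 and 8.92 in SCC25, against 9.66, 9.62 and 9.69 in HaCaT-Mock. The 3 groups did not overlap, and ITGB5 was lower in SCC1 (-1.72, SE 0.0885, limma adjusted p = 2.41e-24) and in SCC25 (-0.79, SE 0.0885, limma adjusted p = 3.77e-11). ITGA2 had 9.06 and 8.80 in SCC1 and 9.50 and 9.15 in SCC25, against 10.01, 10.03 and 9.80 in HaCaT-Mock. It was lower in SCC1 (-1.05, SE 0.159, limma adjusted p = 1.27e-07) and in SCC25 (-0.66, limma adjusted p = 0.000426), the SCC25 call being lost with batch J arrays alone (-0.52, adjusted p = 0.0961).

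ITGB1 separated the carcinoma lines. It had 11.87 and 11.61 in SCC1 and 12.71 and 12.45 in SCC25, against 12.15, 12.23 and 12.10 in HaCaT-Mock, so SCC1 lay below and SCC25 above the HaCaT-Mock arrays. The parental HaCaT array, at 11.34, lay below both SCC1 arrays. ITGB1 was lower in SCC1 (-0.38, SE 0.0668, limma adjusted p = 4.04e-06) and higher in SCC25 (0.47, SE 0.0668, limma adjusted p = 2.91e-08). With only the compared groups in the model the SCC1 call was lost (-0.32, adjusted p = 0.0693). ITGA5 had 7.01 and 7.83 in SCC25, against 6.33, 6.25 and 6.47 in HaCaT-Mock, a rise of 0.95 (SE 0.133, limma adjusted p = 1.37e-08), and 6.09 and 6.39 in SCC1. ITGA6 was lower in SCC1, at 10.87 and 10.64 against 11.07, 11.14 and 10.86 (-0.25, limma adjusted p = 0.0188). The groups overlapped, and the call was lost without SCC1 replicate 2 (-0.17, adjusted p = 0.288) and without HaCaT-Mock PBS replicates 1 or 2 (adjusted p = 0.0559 and 0.117). ITGA3 was lower in SCC25 (-0.32, limma adjusted p = 0.0245), which was lost without SCC25 replicate 1 (-0.27, adjusted p = 0.169), SCC25 replicate 2 (adjusted p = 0.0518) or HaCaT-Mock PBS replicate 1 (adjusted p = 0.0527).

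Between SCC1 and SCC25, 2 genes were higher and 4 lower, beside 42.6% of all genes called. SCC1 was lower in ITGA5 (-1.18, SE 0.142, limma adjusted p = 2.31e-10), ITGB5 (-0.94, limma adjusted p = 1.04e-12), ITGB1 (-0.84, limma adjusted p = 2.36e-15) and ITGA6 (-0.36, limma adjusted p = 0.00146). It was higher in ITGA3 (0.41, limma adjusted p = 0.00632) and ITGB4 (0.27, limma adjusted p = 0.0419). Without SCC1 replicate 2 the calls of ITGA6 (-0.27, adjusted p = 0.064), ITGA3 (0.31, adjusted p = 0.113) and ITGB4 (0.21, adjusted p = 0.246) were lost. Without SCC25 replicate 1 those of ITGA3 (0.36, adjusted p = 0.0636) and ITGB4 (0.18, adjusted p = 0.349) were lost, and without SCC1 replicate 1 that of ITGB4 (0.33, adjusted p = 0.0521). The joint probe set had 8.88 and 8.49 in SCC1 and 11.23 and 10.96 in SCC25, against 9.36, 9.39 and 8.90 in HaCaT-Mock, and SCC1 minus SCC25 was -2.41 (SE 0.155, limma adjusted p = 4e-20).

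The FaDu arrays had no replicate and were not tested. ITGA2 read 6.01 on the PBS-labelled FaDu array (batch P) and 6.59 on the other (batch M), under the 9.49 that was the lowest ITGA2 value of any HaCaT construct array. ITGA6 read 9.48 and 9.04 on these arrays, ITGAV 9.22 and 9.34 and ITGB5 7.62 and 7.68 in the same order. Each of these lay under the lowest HaCaT construct array of its gene, as did ITGB1, at 11.17 and 11.47. ITGB4 read 8.235 and 7.970, and only the second lay under the lowest construct array, narrowly, at 7.974. ITGA3, at 7.90 and 7.38, and ITGA5, at 7.38 and 6.31, lay within the construct ranges. The parental HaCaT array, of batch M, had 9.66 for ITGA2, 10.63 for ITGA6, 9.61 for ITGAV, 11.34 for ITGB1 and 9.33 for ITGB5. Its ITGAV and ITGB1 values too lay under the lowest HaCaT construct arrays, which read 9.63 and 11.63 and were also of batch M. For ITGAV the values were close. The parental values of ITGA3 (7.46), ITGA5 (6.27) and ITGB4 (8.94) lay within the construct ranges. The share of all genes under the construct range on the FaDu and parental arrays is not given here.

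**Figure D5:**
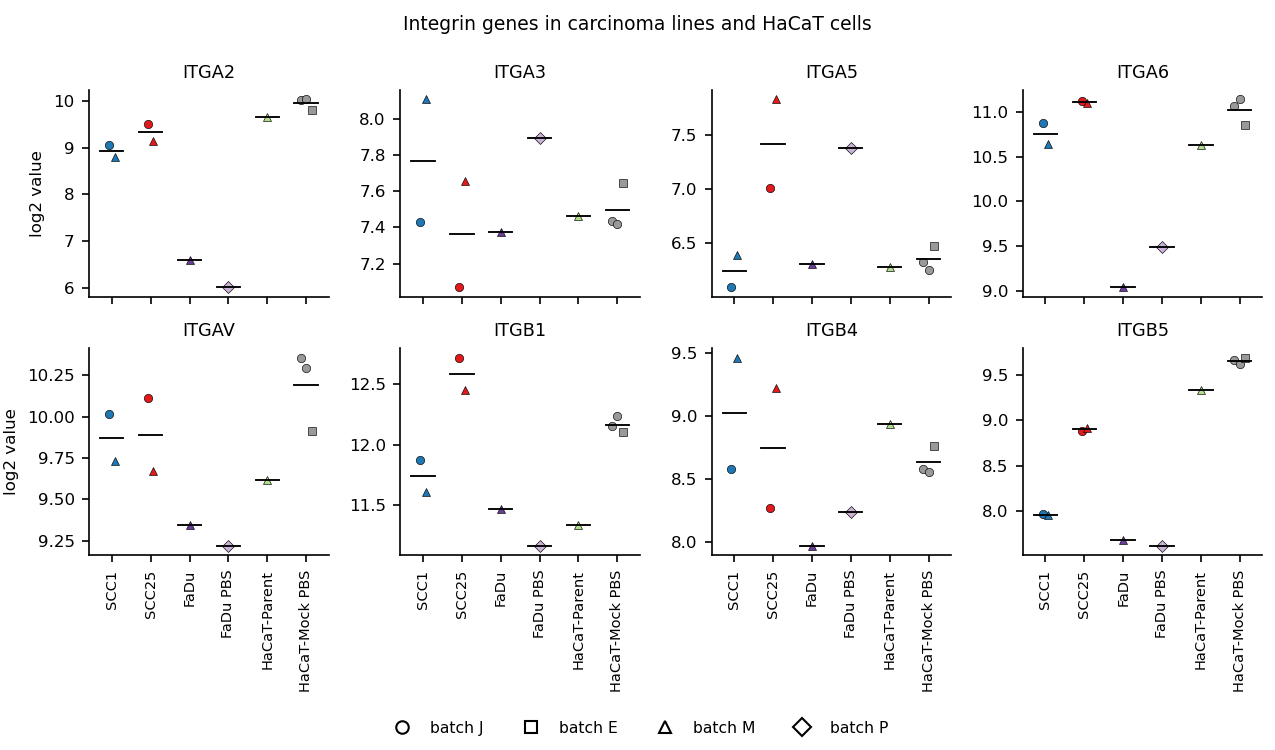
Log2 expression (vertical axis, one panel per gene) of the 8 integrin genes on each array of SCC1, SCC25, FaDu, FaDu PBS, HaCaT-Parent and HaCaT-Mock PBS (horizontal axis). ITGB5 lies at 7.96 and 7.97 in SCC1, 8.89 and 8.92 in SCC25 and 7.62 and 7.68 in FaDu, against 9.62 to 9.69 in HaCaT-Mock.

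The other genes of the adhesion pathway were taken from 4 lists. Of 17 other integrin subunits, 0 rose and 4 fell under the inhibitors over the 4 lines (median -0.04, against -0.01 over all genes, with 39.2% of all genes called), led by ITGA1, a collagen receptor chain (-0.39, limma adjusted p = 7.39e-09). After siEGFR 2 rose and 0 fell (28.4% of all genes called), ITGB8, which pairs with ITGAV (0.74), and ITGA1 (0.27). Scramble siRNA minus PBS was -1.91 for ITGB8. In HaCaT-HRAS under PBS ITGA1 was 1.11 higher than in HaCaT-Mock, and ITGA4 (-1.24) and ITGAE (-0.56), chains best known from leukocytes, were lower.

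Of the ligand list, 17 of 20 genes were measured, and 4 rose and 6 fell under the inhibitors (median -0.03), beside 39.2% of all genes. LAMA5, a laminin chain, rose by 0.57 and TGFB2 by 0.96, while FN1, fibronectin, fell by 0.26 and CCN2, a matricellular protein, by 0.72. In HaCaT-HRAS under PBS 5 rose and 5 fell, beside 16.1% of all genes, with FN1 at 0.74, LAMB1 at 1.04 and TNC, tenascin C, at -1.52. In SCC1 3 were higher and 10 lower (37.4% of all genes called), and in SCC25 6 were higher and 8 lower (42.2%), among them FN1 at -3.87 and TNC at 3.43. After siEGFR 6 rose and 4 fell, beside 28.4% of all genes.

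Of 5 measured hemidesmosome partners of 6, KRT5 (1.06) and KRT14 (0.52), the basal keratins, rose under the inhibitors and DST, the plakin BPAG1, fell by 0.36, which is 3 of 5 beside 39.2% of all genes. In SCC1 3 were lower and 1 higher, KRT14 at -3.03, DST at -1.82 and KRT5 at -1.73, and in SCC25 4 were higher and 0 lower, beside 37.4% and 42.2% of all genes. Of 19 measured focal adhesion adaptors and kinases of 20, 8 rose and 4 fell under the inhibitors (39.2% of all genes called), with TNS3 at 0.90, TGFB1I1 at 0.80, TNS4 at -0.67 and ACTN1 at -0.33. After siEGFR 4 rose and 6 fell (28.4%), led by PTK2, focal adhesion kinase (0.88), for which scramble siRNA minus PBS was -0.87.

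The keratinocyte marker list moved with the inhibitors and with siEGFR. Of its 7 measured genes of 10, 6 rose and 1 fell under the inhibitors over the 4 lines (39.2% of all genes called), and the list's mean level was 11.20 to 12.45 on inhibitor arrays, against 11.24 to 11.84 on PBS arrays. After siEGFR 4 rose and 1 fell (28.4% of all genes called), with CDH1 at 1.12, KRT5 at 0.33, KRT14 at 0.32, DSP at 0.24 and LAMB3 at -0.19, and the list's mean level was 11.48 to 12.06, against 11.23 to 11.84 with scramble. Of 4 endothelial markers, CDH5 (0.60) and VWF (0.71) rose, the list's mean level being 4.53 to 5.30 against 4.51 to 4.78 under PBS. Of 7 fibroblast markers 2 rose and 1 fell, of 3 measured melanocyte markers 1 rose and 1 fell, and of 3 leukocyte markers 0 were called. The part of these genes in the integrin results was not tested.

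Likeness of pattern was measured as Pearson's r over the batch-adjusted means of 24 HaCaT groups, which share batches and controls, and is given as a description. ITGB5 was most like RPL22L1 (0.977), ETV4 (0.970) and ETV5 (0.969), of which ETV4 and ETV5 are ETS factors. ITGAV was most like RNF19B (0.966), PHACTR4 (0.962) and POMZP3 (0.959), and ITGA2 most like GSAP (0.960), SUN1 (0.959) and IRF2BPL (0.958). ITGA5 was most like CLIC1 (0.954), MAP1S (0.944) and ELOVL6 (0.938), and ITGA6 most like PTGS1 (0.928), TMEM170A (0.915) and CIAO2B (0.886). ITGA3 and ITGB1 both had MCFD2 among their nearest genes (0.893 and 0.936), and their r with each other was 0.788. ITGB4 had the weakest likeness, with TJAP1 at 0.854. Among the 8 genes themselves the highest other r was that of ITGA5 with ITGB5 (0.779), and the lowest that of ITGA6 with ITGAV (-0.722).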

How the data were processed

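The 96 arrays were Affymetrix U133 Plus 2.0 chips. The authors deposited log2 values for 54675 probe sets (2.65 to 14.5, array medians 5.08 to 5.18). Their notes name affy with no version, and the methods describe frozen RMA, a surrogate variable correction for batch and removal of outliers. Whether every step was applied to the values is not stated in what was read here, so batch effects may be in part removed or still present.

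The probe annotation gave 41097 probe sets 1 symbol, 1801 several and 11777 none, and the probe set with the highest mean stood for each of 19775 genes. ITGB6 has no probe set of its own, so 8 genes were counted instead of the 9 planned. Models were fitted in limma 3.58.1 (R 4.3.3), with a term per group and for batch, on 89 HaCaT arrays, and on 93 with SCC1 and SCC25, and p-values were Benjamini-Hochberg adjusted over 19776 rows. Intervals are 95% intervals. FaDu and parental arrays were not tested.

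The members and lists were chosen with earlier results of these data known. Named genes were the integrin genes in every comparison, up to 4 changed genes of each partner list with the lowest adjusted p, the 3 genes most like each member, and EGFR and DUSP6 as checks of the labels. Genes with no probe set of 1 symbol are not reported here. Alternatives were batch J alone, the compared groups alone, array weights, quantile normalization, a replicate block, another probe set rule, a filter on low values, and leaving out replicates or arrays in doubt. The model was tested on simulated data for inhibitors minus PBS in HaCaT-Mock. It recovered 32.8% of changes of 0.3 (67 genes), 92.5% of changes of 0.5 (67 genes) and 100% of changes of 1 (66 genes), among 19776 genes. In the data 28.7% of genes were called in this comparison, a far larger share than was changed in the simulation. The shares recovered may therefore not carry over to the data. Comparisons with fewer arrays were not simulated. No pair of arrays had values close enough to count as 1 sample.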

Additional observations from a re-analysis of the deposited data

Results flagged for a closer look

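The inhibitor response of HaCaT-HRAS differed from that of HaCaT-Mock for a pair of integrin genes, by a test of the difference itself. For ITGB5 it was higher by 0.78 on the log2 scale (limma adjusted p = 9.22e-09), with a change of -0.01 in HaCaT-HRAS and -0.79 in HaCaT-Mock. For ITGA3 it was higher by 0.49 (limma adjusted p = 0.00392), with a change of 0.00 in HaCaT-HRAS and -0.49 in HaCaT-Mock. DUSP6 changed by -0.59 in HaCaT-HRAS and -2.86 in HaCaT-Mock. No group had the 4 arrays that a check for a single array far from its group needs.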

How the results depend on the processing

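Of 113 called values (8 genes and the joint probe set in 31 comparisons, 279 values), 59 kept direction and call under every alternative run for them. With batch J arrays alone 66 of 108 calls were kept. With only the compared groups in the model 94 of 113 were kept and 11 values were newly called. Array weights kept 109 and added 45, with weight estimation stopped before convergence, and quantile normalization kept 109 and added 7. A filter on low values kept 113 and added 8. Leaving out 1 replicate kept 2019 of 2229 calls and lost 210. The causes were not tested. With the probe set chosen by the methods' rule, 103 were kept, and ITGB4 turned to 0.0002 for inhibitors in HaCaT-PIK3CA (adjusted p = 0.999) and to 0.0191 for the siEGFR minus inhibitor response (adjusted p = 0.89).

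Counts of called integrin genes moved as follows, with the reported count in parentheses. With batch J arrays alone the count was 1 for HaCaT-HRAS under PBS (2) and under scramble siRNA (3), 1 for inhibitors in HaCaT-HRAS (2), 0 for afatinib minus gefitinib (1), 1 for afatinib minus cetuximab (4), 1 for gefitinib minus cetuximab (2) and 1 for the response difference of HaCaT-HRAS (2). It was 2 for siEGFR in HaCaT-EGFR (4), 0 in HaCaT-HRAS (1), 1 in HaCaT-PIK3CA (2) and 3 over the 4 lines (6), 3 for SCC25 (5) and 3 for SCC1 minus SCC25 (6). With only the compared groups it was 0 for afatinib minus gefitinib (1), 2 for afatinib minus cetuximab (4), 1 for the response difference of HaCaT-EGFR (0) and 1 for that of HaCaT-HRAS (2), 1 for siEGFR in HaCaT-Mock (2), 1 for inhibitors on scramble arrays (5), 5 for scramble siRNA minus PBS (3) and 2 for SCC1 (4). With array weights it was 2 and 3 for HaCaT-EGFR under PBS (0) and scramble siRNA (0), 6 for inhibitors in HaCaT-EGFR (3), 0 for afatinib minus gefitinib (1), 3 for the response difference of HaCaT-EGFR (0), and 5, 3 and 6 for siEGFR in HaCaT-Mock (2), HaCaT-HRAS (1) and HaCaT-PIK3CA (2). Quantile normalization and the methods' probe set rule gave 0 for afatinib minus gefitinib (1), and that rule gave 1 for gefitinib minus cetuximab (2). Without the arrays in doubt 48 of 49 calls were kept and 10 values were newly called. The count was then 3 for inhibitors in HaCaT-HRAS (2), 7 in HaCaT-PIK3CA (5) and 8 over the 4 lines (7), 8 for gefitinib (6), 2 for afatinib minus gefitinib (1), 3 for afatinib minus cetuximab (4), 3 for the response difference of HaCaT-HRAS (2) and 7 for the siEGFR minus inhibitor response (6).

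Leaving out 1 replicate gave 1 to 2 for HaCaT-HRAS under scramble siRNA (3), the 1 without HaCaT-Mock scramble replicate 1 or HaCaT-HRAS scramble replicate 3. It gave 4 to 6 for inhibitors in HaCaT-Mock (6), 2 to 4 in HaCaT-EGFR (3), 4 to 5 in HaCaT-PIK3CA (5) and 6 to 8 over the 4 lines (7). It gave 4 to 6 for afatinib (6), 6 to 8 for gefitinib (6) and 5 to 6 for cetuximab (6). It gave 0 to 2 for afatinib minus gefitinib (1), 2 to 4 for afatinib minus cetuximab (4) and 2 to 4 for gefitinib minus cetuximab (2), the 4 without HaCaT-HRAS gefitinib replicate 3. The range was 2 to 3 for the response difference of HaCaT-HRAS (2), 2 to 3 for siEGFR in HaCaT-Mock (2), 2 to 4 in HaCaT-EGFR (4), the 2 without siEGFR replicate 2 or scramble replicate 3, and 5 to 6 over the 4 lines (6). It was 5 to 7 for the siEGFR minus inhibitor response (6), 3 to 4 for inhibitors on scramble arrays (5), 3 to 4 for SCC1 (4), 4 to 5 for SCC25 (5) and 3 to 7 for SCC1 minus SCC25 (6), the 3 without SCC1 replicate 2.

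Replicate numbers did not pair the arrays: over 190 pairs of groups the correlation of deviations ran from -0.209 to 0.222, with 9 over 0.1. A replicate block gave 4 called genes for inhibitors in HaCaT-Mock (6), without ITGA2 (0.34, adjusted p = 0.0603) and ITGB1 (-0.13, adjusted p = 0.103), 5 for afatinib (6), 5 for cetuximab (6), 3 for siEGFR in HaCaT-Mock (2) and 5 for the siEGFR minus inhibitor response (6), and kept 88 of 95 calls. Precision is limited by groups of 1 to 3 arrays.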
